A study of Rattus norvegicus with 6 samples.

Results

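The genes described here encode fibronectin (Fn1), the matricellular proteins tenascin C (Tnc), periostin (Postn) and SPARC (Sparc), and 6 proteins of elastic fibres and their microfibrils: the fibrillins Fbn1 and Fbn2, elastin (Eln), fibulin 5 (Fbln5) and the microfibril-associated proteins Mfap4 and Mfap5. They were chosen by gene name, with earlier results of these data known. Each of the 10 names matched 1 row of a table of 26981 genes. Fibronectin is a secreted glycoprotein that cells stretch into fibrils through integrins, and other matrix proteins are laid down on those fibrils. Elastic fibres form when tropoelastin is deposited and crosslinked on a scaffold of fibrillin microfibrils. Matricellular proteins add little to the bulk of the matrix but bind its fibres, growth factors and cell receptors, and are typically made in bone, in healing tissue and under mechanical strain.

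RNA was sequenced from right knee articular cartilage of wild-type male Sprague-Dawley rats, 6 weeks old when the experiment began, in 3 unloaded control libraries and 3 loaded libraries. In the loaded group the right knee and ankle of anaesthetised rats were compressed along the limb every 2 days for 4 weeks, with 40 cycles of 10 s per session, each with a base load of 5 N over 9 s and a peak load of 20 N over 0.5 s. The loaded libraries carry a label of excessive mechanical load, while the force and duration come from the study design and the controls are known by their titles. Nothing in the labels ties a library to its own animal, so the p-values reflect spread among libraries that could partly be technical.

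Library totals ran from 34527264 to 40332904 counts in control and from 28435307 to 33616096 in loaded libraries. On these unscaled totals 3 counts, the limit that a count of 0 allows, amount to 0.0744 to 0.106 per 1000000 counts. Such limits cover counting error only. All levels below given as CPM are counts per 1000000 counts of a library total scaled between libraries (TMM). Cartilage markers were present, for example Col2a1, the main collagen of cartilage, at 1006 ± 40.6 CPM in control libraries and 1519 ± 45.2 CPM in loaded ones (means ± SD of 3 libraries). The tissue was mixed: summed CPM of the erythroid marker list was 148189 ± 8517 in control and 133437 ± 7971 in loaded libraries, against 2081 ± 49.3 and 2966 ± 69.6 for the chondrocyte list. In bulk RNA, fewer cells of a type and less RNA per cell cannot be told apart.

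Loaded knees carried 2.21-fold and 2.13-fold higher levels of periostin and SPARC transcript than control knees, smaller rises of tenascin C and Mfap5, and a 1.89-fold lower level of fibronectin transcript. Fbn1, the main fibrillin, was slightly lower. Of the 10 genes, 4 rose and 2 fell at an adjusted p under 0.05 (quasi-likelihood test in edgeR, adjusted by Benjamini-Hochberg over the 16447 genes tested), and the other 4 did not pass. Over all genes tested, 35.8% were called, 17.9% as higher and 18% as lower. The median log2 fold change of the 10 genes was 0.76, against 0.00 over all genes tested. That median leans on Mfap4, Fbn2 and Eln, at 1.04, 0.96 and 0.84, which were not called and whose groups overlapped. It therefore does not show a rise of the genes as a set. The 3 loaded libraries lay entirely above the 3 control libraries for 5 of the genes and entirely below for 2, and the groups overlapped for 3. Over all genes tested, 47.9% had groups that did not overlap. A rise of at least 2-fold was called for 2 of the genes and a fall of that size for 0, where 4.99% and 1.61% of all genes tested had one.

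**Figure D1:**
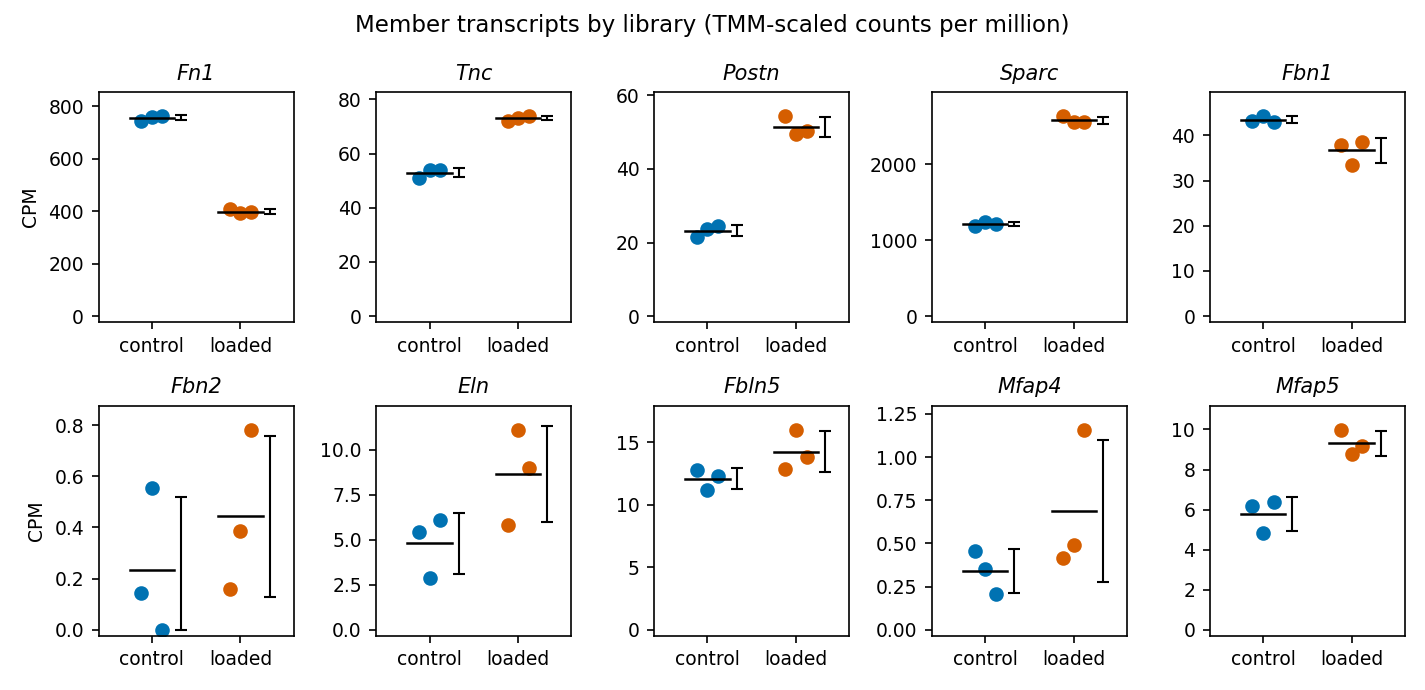
TMM-scaled CPM (vertical axis, linear) of the 10 genes in each control and loaded library. Points are libraries, horizontal lines are group means and bars are ± 1 SD of 3 libraries, drawn no lower than 0. Fn1 is lower in all 3 loaded libraries, Sparc, Postn, Tnc and Mfap5 are higher in all 3, and Fbn2, Eln and Mfap4 overlap between the groups.

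Sparc and Fn1 held most of the reads of these genes, in different proportions in the loaded and control libraries. The 10 genes together took 0.199%, 0.212% and 0.205% of counts in the 3 control libraries and 0.339%, 0.314% and 0.322% in the 3 loaded libraries. Sparc made up 57.1% to 57.7% of the counts of the 10 genes in control and 81.1% to 81.4% in loaded libraries. Fn1 made up 35.6% to 36.0% in control and 12.5% to 12.7% in loaded libraries. The log2 ratio of Fn1 to Sparc counts, which does not depend on how libraries are scaled, averaged -0.68 ± 0.02 over the 3 control libraries and -2.69 ± 0.01 over the 3 loaded ones (SD). The difference of -2.01 had p = 0.1 in a two-sided exact permutation test, the smallest value that 3 libraries against 3 can give.

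Fibronectin had the larger of the 2 falls. Fn1 (ENSRNOG00000014288) stood at 745, 759.7 and 763 CPM in the control libraries and at 409, 392 and 396 CPM in the loaded libraries. The groups did not overlap, and the spread within each was small beside the gap between them. The mean fell from 756 ± 9.77 to 399 ± 9.25 CPM (SD, n = 3 each), a log2 fold change of -0.92 ± 0.0354 (SE) or a 1.89-fold lower level (adjusted p = 5.26e-11, edgeR). Macrophages and megakaryocytes can also make fibronectin, and the levels of their markers are given here beside it. The megakaryocyte and platelet markers had 9 of 11 genes called lower and none higher, with a summed level of 982 to 1036 CPM in control and 543 to 575 CPM in loaded libraries. Their defining genes Pf4 and Ppbp stood at 285 and 286 CPM in control and at 143 and 166 CPM in loaded libraries. Of the 13 tested monocyte and macrophage markers 6 were called lower and 4 higher, and the summed level was 15548 to 15993 CPM in control and 11500 to 11708 CPM in loaded libraries, 94.3% of it Lyz2. Other lists had higher sums in loaded libraries. The sum was 1.78 times that of control for fibroblast and synovial lining, 1.88 times for osteoblast and osteocyte, and 1.43 times for chondrocyte markers. Col1a1 was the top gene of the first 2 of these lists and Col2a1 of the third. The part of any of these cells in the lower Fn1 level was not tested.

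Among 9333 other genes with a mean of at least 5 CPM, those whose log2 CPM followed Fn1 most closely over the 6 libraries were Cd14, a monocyte co-receptor for bacterial lipopolysaccharide (Pearson r = 0.9997), Cap1, an actin-regulating protein (r = 0.9996), and the kinase gene Lmtk2 (r = 0.999). Cd14 was lower by a log2 fold change of -1.13, Cap1 by -0.37 and Lmtk2 by -0.35. These 6 points fall into 2 groups of 3, so any gene with a clean group difference gives a high r, and the values only describe likeness.

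Sparc, Postn and Tnc, the matricellular genes, all rose. SPARC, also called osteonectin, binds collagen and calcium and is abundant in bone. Its transcript (ENSRNOG00000012840) stood at 1184, 1232 and 1209 CPM in control and at 2632, 2548 and 2549 CPM in loaded libraries. No loaded library came near the control range. The mean rose from 1208 ± 23.6 to 2576 ± 48.0 CPM, 2.13-fold, with a log2 fold change of 1.09 ± 0.0304 (SE; adjusted p = 1.41e-12, edgeR).

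Periostin, a protein of periosteum, tendon and other load-bearing connective tissue, binds collagen, fibronectin and tenascin C. Postn (ENSRNOG00000012660) stood at 21.5, 23.7 and 24.4 CPM in control and at 54.4, 49.4 and 50.3 CPM in loaded libraries. Every loaded library was above every control, and the mean rose from 23.2 ± 1.52 to 51.3 ± 2.65 CPM. Its log2 fold change of 1.14 ± 0.0692 (SE) was the highest of the 10 fitted values (adjusted p = 7.72e-09, edgeR). The genes most like it over the 6 libraries, by the same measure, were Dtx3l, a ubiquitin ligase (r = 0.999), Perm1, a muscle metabolic regulator (r = 0.9987), and Nol3, a cell death inhibitor (r = 0.9986).

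Tenascin C is a large glycoprotein that modifies the attachment of cells to fibronectin and is made in strained and healing tissue. Tnc (ENSRNOG00000058645) stood at 51.1, 53.8 and 53.9 CPM in control and at 72.2, 73.3 and 73.9 CPM in loaded libraries. The groups were well separated although the change was smaller, with a log2 fold change of 0.47 ± 0.0505 (SE), 1.38-fold (adjusted p = 4.23e-06, edgeR). Tnc counts were 2.21 to 2.38 times those of Postn in control and 1.33 to 1.48 times in loaded libraries. The log2 ratio went from 1.19 ± 0.0536 to 0.51 ± 0.0884 (SD, n = 3 each), and the two-sided exact permutation test gave its smallest possible p of 0.1.

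**Figure D2:**
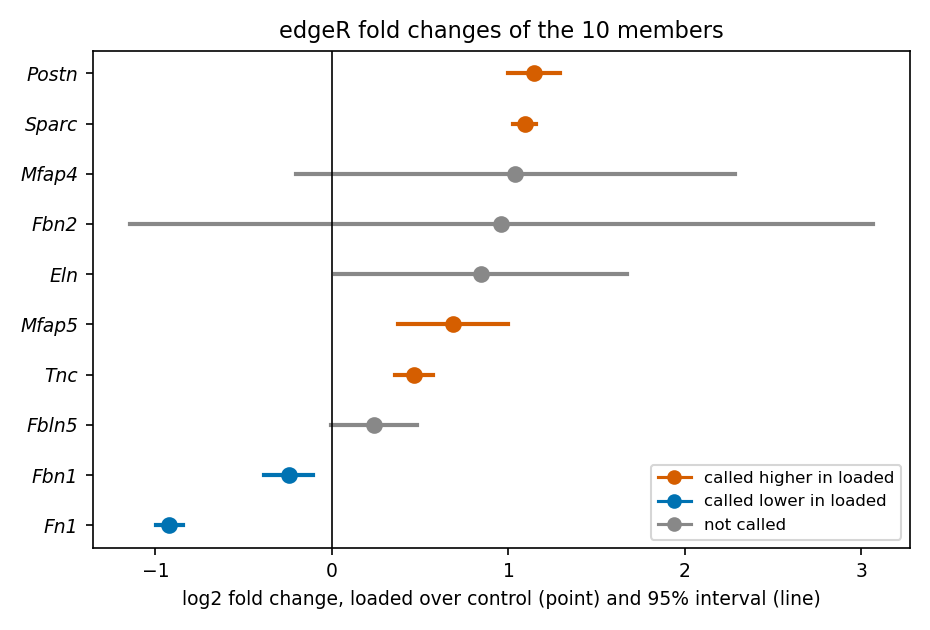
Log2 fold change of each gene, loaded over control (horizontal axis; points), with its 95% interval from edgeR (lines), ordered by size and coloured by the call at an adjusted p under 0.05. Postn, Sparc, Mfap5 and Tnc lie above 0 and Fn1 and Fbn1 below it, while Fbn2 and Mfap4, the genes of lowest count, have the widest lines.

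Of the 6 elastic fibre genes 1 rose and 1 fell, shares near the 17.9% and 18% of all genes tested. Fibrillin 1 builds the backbone of microfibrils and also holds latent TGF-beta in the matrix. Fbn1 (ENSRNOG00000007302) stood at 43.2, 44.3 and 43.0 CPM in control and at 37.9, 33.5 and 38.6 CPM in loaded libraries. All 3 loaded libraries were below the controls, with loaded replicate 2 lowest. The log2 fold change was -0.25 ± 0.0657 (SE; adjusted p = 0.00871, edgeR). The call did not hold with library totals in place of the scaling (adjusted p = 0.0895) or when both replicate 2 libraries were left out (adjusted p = 0.0984). The adjusted p over all alternatives ran from 0.00344 to 0.0984 (edgeR, voom and DESeq2).

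Mfap5 encodes a small glycoprotein of microfibrils that binds fibrillin. Mfap5 (ENSRNOG00000015505) stood at 6.18, 4.82 and 6.37 CPM in control and at 10.0, 8.77 and 9.16 CPM in loaded libraries. The groups did not overlap, and the log2 fold change was 0.68 ± 0.146 (SE), 1.61-fold (adjusted p = 0.00184, edgeR).

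Elastin, which gives elastic fibres their recoil, was more variable. Eln (ENSRNOG00000001469) stood at 5.41, 2.86 and 6.11 CPM in control and at 5.81, 11.1 and 8.96 CPM in loaded libraries. Loaded replicate 1 lay inside the control range and the other 2 above it. The log2 fold change was 0.84 with an unadjusted 95% interval of 0.02 to 1.67 (adjusted p = 0.109, edgeR). It passed in DESeq2 (adjusted p = 0.0157) and, in edgeR, without loaded replicate 1 (adjusted p = 0.0368). Without both replicate 2 libraries the log2 fold change was 0.36 (adjusted p = 0.265, edgeR), the highest p of the alternatives. In the authors' deposited table Eln has a false discovery rate of 0.00314 and a log2 fold change of 0.85. The deposited FPKM values (fragments scaled by transcript length and library size) of Eln did not overlap between groups, at 1.44, 1.01 and 1.62 in control and 2.20, 3.16 and 2.66 in loaded libraries. FPKM and counts of Eln together imply a transcript length of 3.62, 2.80 and 3.66 kb in control and 2.77, 3.53 and 3.45 kb in loaded libraries. That length varied 1.32-fold between libraries for Eln and by 1.06-fold or less for Fn1, Tnc, Postn, Sparc, Fbn1, Fbln5 and Mfap5. Control replicate 2 and loaded replicate 1, with the shortest implied length, also had the lowest Eln CPM of their groups. How the authors set the length is not given in the sources used here.

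Fibulin 5 binds tropoelastin and guides it onto microfibrils. Fbln5 (ENSRNOG00000050539) stood at 12.8, 11.2 and 12.3 CPM in control and at 12.8, 16.0 and 13.9 CPM in loaded libraries. The highest control and the lowest loaded library were almost level. The log2 fold change of 0.24 had an interval of -0.01 to 0.48 and did not pass (adjusted p = 0.125, edgeR). Over the alternatives its adjusted p ran from 0.0414, with library totals, to 0.635, without both replicate 2 libraries, where the log2 fold change was 0.0887.

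The second fibrillin, Fbn2, which is made mainly in development, and Mfap4, an elastic fibre protein, had the lowest counts of the 10 genes. Fbn2 (ENSRNOG00000043219) had 5, 19 and 0 counts in control and 5, 11 and 27 counts in loaded libraries. Mfap4 (ENSRNOG00000002382) had 16, 12 and 8 counts in control and 13, 14 and 40 counts in loaded libraries. The groups overlapped for both genes, and the 95% intervals of the log2 fold change, -1.14 to 3.06 for Fbn2 and -0.20 to 2.28 for Mfap4, include no change and several-fold changes (adjusted p = 0.487 and 0.187, edgeR).

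Levels can be compared between genes only per length, for which the deposited FPKM values were used. In control libraries Sparc had the highest level, 535 ± 21.5 FPKM, and Fn1 came next at 83.8 ± 2.72 FPKM (SD, n = 3 each). Tnc, Postn, Mfap5 and Fbln5 followed at 6.71 ± 0.296, 6.70 ± 0.496, 5.57 ± 0.792 and 4.88 ± 0.223 FPKM, and each of these overlapped with its neighbour in the order. Fbn1 at 4.02 ± 0.153, Eln at 1.36 ± 0.311, Mfap4 at 0.204 ± 0.0845 and Fbn2 at 0.0276 ± 0.0345 FPKM each lay below the gene before them in every library. In loaded libraries Sparc stood at 1216 ± 51.2 and Fn1 at 47.3 ± 2.19 FPKM. Postn, at 15.9 ± 1.19 FPKM, lay above Tnc, at 9.86 ± 0.255 FPKM, in every loaded library, and Tnc overlapped with Mfap5 at 9.41 ± 0.872 FPKM. The order of the remaining genes was that of the controls.

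The 250 bases before the annotated start of 5 of the genes are shown because these are the called genes with an entry: 4 of the transcripts rose and that of Fbn1 was lower. They are from RefSeq, build GRCr8, where 7 of the 10 genes had an entry, and capitals mark motifs found on either strand. The motifs searched were the TATA box written TATAAA, the CCAAT box by those letters, the GC box written GGGCGG, the AP-1 site written TGANTCA, and the SMAD site written CAGAC.
Sparc (chr10:40038817-40039066, minus strand): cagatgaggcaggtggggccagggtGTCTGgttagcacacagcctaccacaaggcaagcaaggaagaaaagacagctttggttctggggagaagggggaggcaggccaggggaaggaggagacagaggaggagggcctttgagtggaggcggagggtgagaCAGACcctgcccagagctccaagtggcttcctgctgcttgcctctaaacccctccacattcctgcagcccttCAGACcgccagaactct
Postn (chr2:140677811-140678060, plus strand): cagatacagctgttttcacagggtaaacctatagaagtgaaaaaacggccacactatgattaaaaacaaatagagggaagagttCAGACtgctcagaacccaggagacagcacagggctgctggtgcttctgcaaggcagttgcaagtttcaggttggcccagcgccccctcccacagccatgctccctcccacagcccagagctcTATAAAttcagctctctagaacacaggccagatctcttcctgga
Tnc (chr5:82476132-82476381, minus strand): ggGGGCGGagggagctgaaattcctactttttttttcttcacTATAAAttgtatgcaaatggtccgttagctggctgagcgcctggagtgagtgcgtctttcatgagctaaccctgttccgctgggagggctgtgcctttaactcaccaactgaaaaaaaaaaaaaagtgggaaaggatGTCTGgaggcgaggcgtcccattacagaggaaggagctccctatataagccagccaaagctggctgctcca
Mfap5 (chr4:157399669-157399918, plus strand): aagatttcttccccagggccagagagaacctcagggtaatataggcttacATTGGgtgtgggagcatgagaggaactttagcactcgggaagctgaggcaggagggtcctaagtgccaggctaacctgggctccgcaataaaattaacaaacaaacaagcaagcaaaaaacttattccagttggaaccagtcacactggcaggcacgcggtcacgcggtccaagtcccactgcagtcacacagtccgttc
Fbn1 (chr3:133203391-133203640, minus strand): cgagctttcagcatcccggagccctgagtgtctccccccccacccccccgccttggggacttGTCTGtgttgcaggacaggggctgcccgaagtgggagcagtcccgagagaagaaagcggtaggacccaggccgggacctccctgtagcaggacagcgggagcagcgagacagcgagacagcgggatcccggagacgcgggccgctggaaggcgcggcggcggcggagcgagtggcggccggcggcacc
The Postn sequence holds TATAAA with its first base 44 bases before the start, and the Tnc sequence holds one 208 bases before it, while the Sparc, Mfap5 and Fbn1 sequences hold none. Only these exact letters were searched, so the similar tatataa near the end of the Tnc sequence is not marked. Over 33469 promoters of the same length, 12.9% hold the TATA motif, 34.0% the CCAAT box, 30.5% the GC box, 6.34% the AP-1 motif and 42.9% the SMAD motif. The SMAD motif occurs 3 times in the Sparc sequence, once in each of those of Postn, Tnc and Fbn1 and not in that of Mfap5, which holds 1 CCAAT box on the other strand, and the AP-1 motif occurs in none of the 7 entries. The marked motifs do not overlap each other. The Fbn1 sequence is richer in G and C, at 71.2%, than those of Sparc (60.0%), Mfap5 (51.6%), Postn (50.8%) and Tnc (49.6%), and it has 24 CG pairs where Postn and Sparc have 2 each and Tnc and Mfap5 have 7 each. The entries not shown, of the uncalled genes Fbn2 and Fbln5, have 70.0% and 63.2% G and C and 34 and 14 CG pairs. The median over all promoters is 51.2% G and C and 5 CG pairs. These matches describe letters in this window and show no binding.

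The pathway lists here and below were chosen with earlier results of these data known, so their shares are descriptive and were not tested. On the list of elastic fibre and microfibril assembly the share called lower was near that of all genes and the share called higher above it. Of 33 listed genes 31 were tested, members included, and 10 rose (32.3%) and 7 fell (22.6%), where 17.9% and 18% of all genes tested did, with a median log2 fold change of 0.24 against 0.00 over all genes tested. Lox, the enzyme that crosslinks elastin and collagen, rose from 9.99 ± 0.522 to 33.3 ± 0.489 CPM (adjusted p = 7.67e-10, edgeR). Efemp2, a fibulin needed for elastic fibre assembly, rose from 17.0 ± 0.621 to 28.0 ± 1.14 CPM, and the small proteoglycans Bgn and Dcn, which bind collagen and microfibrils, had log2 rises of 0.51 ± 0.0495 and 0.46 ± 0.0476 (SE). Ltbp1, which anchors latent TGF-beta to fibronectin and fibrillin, fell from 28.7 ± 2.01 to 15.7 ± 0.898 CPM (adjusted p = 2.03e-06, edgeR). Mmrn1, a platelet and endothelial protein, fell from 49.95 ± 2.55 to 21.3 ± 1.66 CPM.

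In the matricellular list, Sparc, Postn and Tnc included, 12 of 21 tested genes rose (57.1%) and 5 fell (23.8%), again beside 17.9% and 18% of all genes tested. The median log2 fold change was 0.47 (26 genes listed). Without Sparc, Postn and Tnc, 9 of 18 tested genes rose and 5 fell, with a median of 0.22. As the list was chosen with earlier results known, these shares do not test the list as a set. Tenascin W (Tnn), a relative of tenascin C, rose from 1.77 ± 0.466 to 8.57 ± 0.784 CPM (adjusted p = 4.06e-07, edgeR). Thrombospondins were split: Thbs2 rose from 10.5 ± 0.643 to 32.7 ± 2.04 CPM and Comp, the cartilage thrombospondin, from 134 ± 3.71 to 224 ± 7.18 CPM. Thbs1, which platelets store, fell from 70.0 ± 6.59 to 28.4 ± 3.45 CPM. Thbs4 was also lower, at 63.2 ± 1.82 CPM in control and 29.5 ± 0.966 CPM in loaded libraries. Sparcl1, the closest relative of Sparc on the list, fell from 76.6 ± 2.2 to 45.0 ± 0.88 CPM (adjusted p = 2.48e-08, edgeR), opposite to Sparc.

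Among fibronectin receptors and proteins that link them to actin, Fn1 included, 8 of 31 tested genes rose (25.8%) and 12 fell (38.7%), beside the same 17.9% and 18%. The median log2 fold change was -0.13 (32 genes listed). Without Fn1, 8 of 30 tested genes rose and 11 fell, with a median of -0.11. Receptors went both ways: of 10 integrin chains tested 2 rose and 4 fell, and all 3 syndecans, proteoglycan co-receptors for fibronectin, rose. Both chains of the main fibronectin receptor were lower, Itga5 at 32.3 ± 1.24 and 24.7 ± 0.921 CPM (adjusted p = 0.000693) and Itgb1 at 213 ± 9.59 and 178 ± 0.506 CPM (adjusted p = 0.000284, edgeR for both). Itgb6, a chain of an epithelial fibronectin receptor, rose from 2.44 ± 0.386 to 6.75 ± 0.452 CPM (adjusted p = 1.35e-05, edgeR). Sdc1, Sdc2 and Sdc4 had log2 fold changes of 0.67, 0.47 and 0.31. Itga3 had one of 1.13, on 26 to 76 counts per library, and its call was lost in 4 of the alternatives. These receptors were picked after seeing their values. Itga2b, the platelet integrin chain that is also on the megakaryocyte list, fell from 163 ± 4.2 to 93.4 ± 4.41 CPM. Filamin A (Flna), an actin crosslinker, fell from 621 ± 6.01 to 401 ± 5.2 CPM, vinculin (Vcl), a protein of focal adhesions, from 106 ± 1.52 to 67.4 ± 4.4 CPM, and Tln1 and Pxn, which join integrins to actin, fell by 0.44 and 0.50 on the log2 scale. Flnc, the filamin of muscle, rose from 18.8 ± 0.73 to 41.9 ± 2.31 CPM. Platelets are rich in several of these proteins, so their lower level stands beside the lower megakaryocyte and platelet markers given above, and the part of those cells was not tested.

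**Figure D3:**
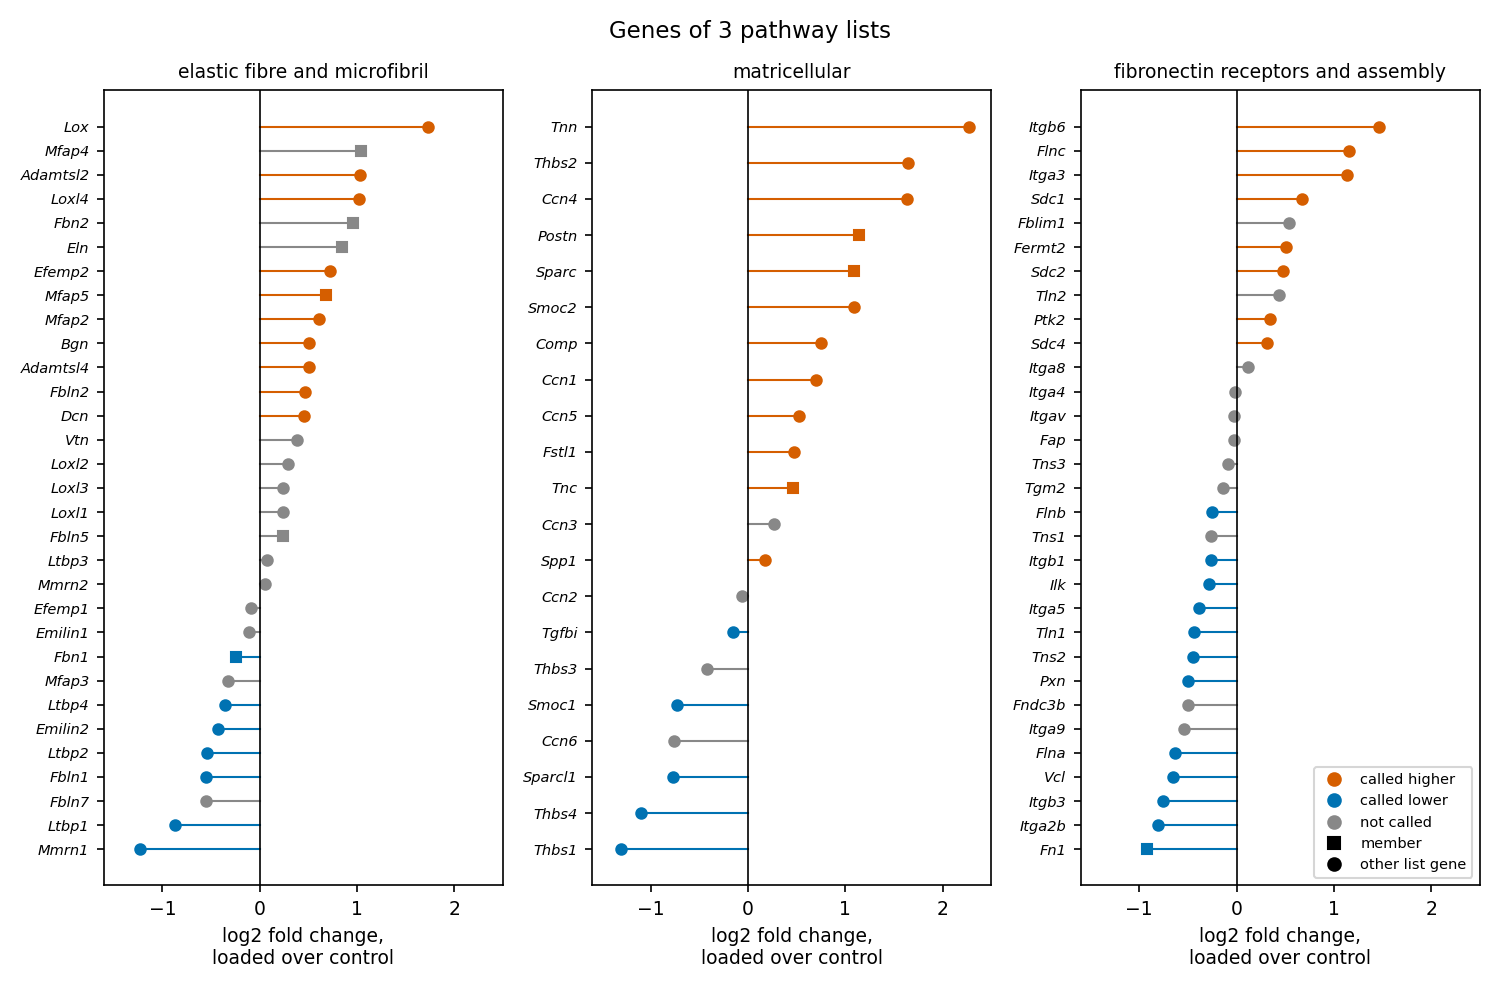
Log2 fold change, loaded over control (horizontal axes), of every tested gene on 3 lists: elastic fibre and microfibril, matricellular, and fibronectin receptors and assembly. Squares are the 10 genes described here and circles the other list genes, coloured by the call at an adjusted p under 0.05. Fn1 is the lowest point of its list, while Postn and Sparc lie in the upper part of the matricellular list.

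The marker lists of bone, of fibroblasts and synovial lining, of cartilage and of muscle had higher sums in loaded libraries, as Sparc, Postn, Tnc and Mfap5 did. Those of tendon and fat had lower sums. The summed level of the osteoblast and osteocyte markers was 3224 to 3262 CPM in control and 5956 to 6198 CPM in loaded libraries (9 of 14 genes called higher, 1 lower), and Col1a1 made up 57.8% of it. Fibroblast and synovial lining markers, a list that also holds Col1a1, summed to 4162 to 4279 and 7335 to 7627 CPM (8 of 16 higher, 4 lower). Col1a1 made up 46.2% of that sum. Its mean went from 1522 to 3872 CPM and that of Col1a2 from 711 to 1776 CPM. The rise of the sum is mainly that of these 2 collagen genes and says little of the other markers. Chondrocyte markers summed to 2038 to 2135 and 2902 to 3040 CPM (9 of 17 higher, 1 lower). Skeletal muscle markers, of which 16 of 20 were matched, summed to 8665 to 8805 and 20162 to 21103 CPM (16 of 16 higher). Smooth muscle and pericyte markers, cells that make elastin in vessels, summed to 106 to 116 and 139.8 to 148 CPM (6 of 11 higher, 1 lower). Tendon and ligament markers went the other way, at 256 to 271 and 219 to 234 CPM (0 of 7 tested higher, 3 lower). Their mean sum went from 263 to 227 CPM, and Thbs4 alone went from 63.2 to 29.5 CPM. Chad, also on that list, stood at 63.0 and 70.4 CPM and was not called. The lower sum is thus mainly that of Thbs4 and says little of the other tendon markers. Adipocyte markers were also lower, at 554 to 563 and 387 to 417 CPM (0 of 12 higher, 9 lower). Endothelial markers summed to 218 to 233 and 195 to 213 CPM (2 of 11 higher, 5 lower), and neutrophil and marrow myeloid markers to 46847 to 51464 and 32730 to 39369 CPM (2 of 13 higher, 8 lower). The part of these tissues in the levels of the 10 genes was not tested.

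**Figure D4:**
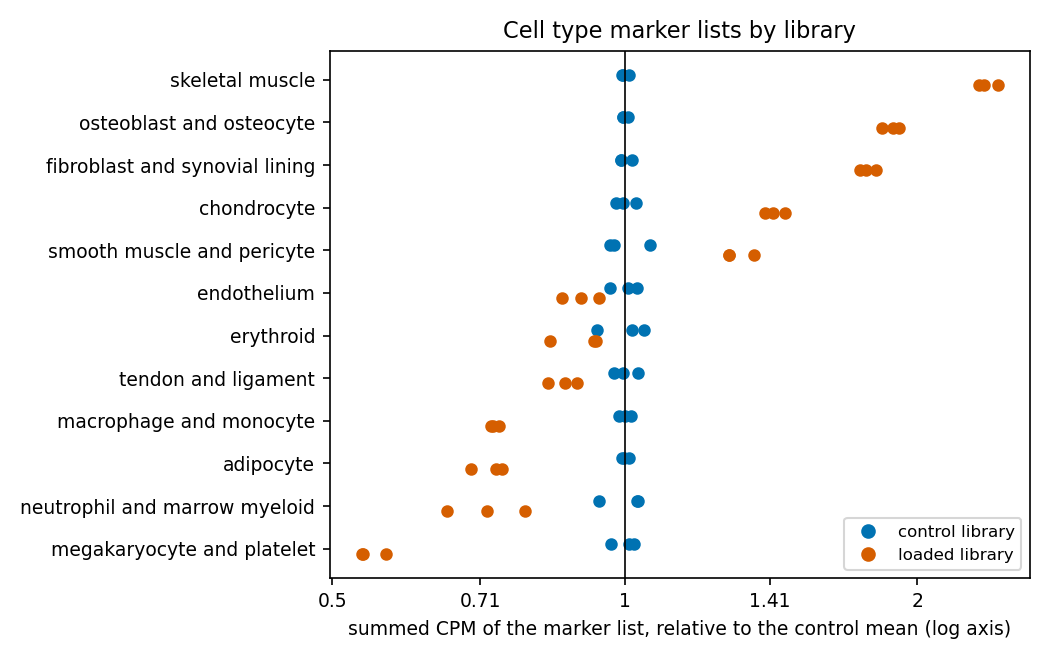
Summed CPM of each cell type marker list in every library, divided by the control mean of that list (horizontal axis, log scale). Blue points are control and orange points loaded libraries. Loaded libraries are highest for skeletal muscle, osteoblast and fibroblast markers and lowest for megakaryocyte and platelet markers.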

How the data were processed

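Per the labels' protocols, RNA was extracted with TRIzol and 1 µg per sample was made into mRNA libraries. The deposited table holds raw read counts per gene, not normalised by the authors per the file headers, and FPKM values that the authors computed per library. It also holds the authors' own DESeq2 comparison. The submitters' processing notes name HISAT2, DESeq2 and the mouse build mm10, although the identifiers are rat Ensembl ones. For the counting tool, annotation and strand setting, a value is not given in the sources used here, so reads of overlapping antisense genes cannot be told apart.

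Of 26991 lines 10 were spilled annotation and were dropped. Counts were fitted with edgeR 4.0.16 (R 4.3.3): filterByExpr, TMM scaling and the robust quasi-likelihood F test over 16447 genes, without a replicate block, at an adjusted p under 0.05. All 10 members passed the filter. SE is the log2 fold change over the square root of F. CPM uses TMM-scaled totals of the tested genes, and FPKM entered no test. Likeness was taken on log2 CPM (prior count 2). Ratios used counts plus 0.5. Of 251 listed symbols 240 matched, 6 through RefSeq. The test was checked on simulated counts with the same spread setting for every gene. It recovered 4% of 1.25-fold, 52% of 1.5-fold, 92% of 2-fold and 100% of 4-fold changes. Of the unchanged genes 0.0369% were called. In the data the spread was fitted per gene, and a 1.13-fold rise of Spp1 was called. These shares therefore hold for the simulated spread only, and small changes could still be missed.

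By rule, the text names all 10 members, up to 6 called genes of smallest adjusted p per pathway list, and the 3 genes most like the largest riser and faller. The receptors Itga5, Itgb1, Itgb6, Itga3, Sdc1, Sdc2 and Sdc4 and the neighbours of other members were named outside that rule, after seeing their values. Some cell type markers are named as well. The members and lists were chosen with earlier results of these data known. Alternatives were DESeq2 1.42.0, limma 3.58.1 (voom), other scalings and filters, left-out libraries, a replicate block and other thresholds.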

Additional observations from a re-analysis of the deposited data

How the results depend on the processing

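Of 364 values under alternative settings, 351 kept their direction and their side of the threshold, or for counts stayed within 1.5 times the reported one and for ratios moved by less than 1 SD between libraries. Fn1, Sparc, Postn, Tnc and Mfap5 kept their calls in every alternative run, at log2 fold changes of -0.94 to -0.85, 1.08 to 1.17, 1.09 to 1.22, 0.44 to 0.54 and 0.57 to 0.76. Fbn1 missed the threshold with library totals (-0.17) and without both replicate 2 libraries (-0.17), where 1 gene in place of 2 was called lower. Eln passed with DESeq2 (0.84) and without loaded replicate 1 (1.06), and Fbln5 with library totals (0.31). Leaving out 1 library at a time, Eln ran from 0.58 to 1.06, the genes called higher numbered 4 to 5, and the matricellular genes called lower numbered 3 to 6, with 3 without control replicate 2. The latter were also 3 without both replicate 2 libraries and at an adjusted p under 0.01, where 6 elastic fibre genes were called higher. The log2 ratio of Mfap5 to Mfap4 differed by -0.23 between groups and reversed without control replicate 3 (0.15) or loaded replicate 3 (0.22), with a range of -0.57 to 0.22. That of Fbn2 to Fbn1 differed by 2.12 and, with a wide spread between libraries, ranged from 0.62 without control replicate 3 to 3.33 without control replicate 2. Its FPKM form could not be computed, since Fbn2 is listed at 0 in 1 library. The elastic fibre genes called higher numbered 7 to 10 with 1 library left out. Deviations of same-numbered libraries from their group means correlated at -0.0139, 0.0462 and 0.0207, and those of differently numbered ones at -0.0464 to 0.0293. With 3 libraries per group these values cannot settle whether replicate numbers pair the libraries. With the replicate block, 4 genes were still called higher and 2 lower. Low counts of Fbn2 and Mfap4 limit the precision of their values.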

Other observations

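Likeness over the 6 libraries, by the same measure as above, gave other neighbours for Sparc, Tnc, Fbln5, Eln and Fbn1. For Eln and Fbn1 only the closest is named, and those of Mfap5, Mfap4 and Fbn2 are not given here. Sparc was followed most closely by Col11a2, a cartilage fibril collagen chain (r = 0.9998), Ibsp, the bone sialoprotein (r = 0.9995), and Clec4d, a myeloid lectin receptor (r = 0.9995). Tnc was followed by Tmem38a, an ion channel of muscle sarcoplasmic reticulum (r = 0.9991), the interferon-induced gene Herc6 (r = 0.9985) and Klhl31 (r = 0.9983). For Fbln5 the closest gene was Papss2, a sulfate donor synthase of cartilage (r = 0.9991), at 16.0 CPM in control and 18.3 CPM in loaded libraries. Ndufa11 (r = 0.9931) and Rps16 (r = 0.9895) came next. For Eln the closest gene was Ccdc90b (r = 0.994), and for Fbn1 Cela1, a pancreatic-type elastase (r = 0.9976), at 7.41 and 3.05 CPM. The choice of these neighbours came after seeing their values. The r values describe likeness between 2 groups of 3 libraries and carry no test.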
